A study of Mus musculus with 6 samples.

Results

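The T-box genes of the limb were Tbx2, Tbx3, Tbx4, Tbx5, Tbx15 and Tbx18, chosen by name and not by a measured value. All 6 were found by gene name among the 59305 non-control spots of each array, and each of the 6 genes had 1 probe printed in 1 spot. The samples were outer interzone (3 arrays) and intermediate interzone (3 arrays) of mouse embryos at 15.5 days of gestation, with 1 embryo to a biological replicate, per the submitters' design text. The interzone is the strip of packed mesenchyme where a synovial joint will form, and its outer layers border the cartilage on either side of the intermediate layer. No strain, genotype, sex, joint or limb was given in the labels, and no treatment was named for either group. The way in which the layers were isolated is not described in the sources used here. Total RNA was amplified, labelled with Cy3 and hybridised to single-colour Agilent arrays.

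T-box proteins are transcription factors that share a DNA-binding domain, the T-box, and bind a short sequence whose core reads GGTGTGA. Tbx4 and Tbx5 act mainly as activators and start limb outgrowth in the mouse by inducing Fgf10, with Tbx5 expressed in the forelimb and Tbx4 chiefly in the hindlimb. Tbx2 and Tbx3 are repressors that respond to BMP signals and take part in digit patterning, and Tbx15 and Tbx18 are close relatives that recruit Groucho-type co-repressors and are needed for parts of the limb girdle and axial skeleton.

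A level is the log2 ratio of a spot's processed signal to the 75th percentile signal of its array, so a level of 0 equals that percentile. Differences are outer minus intermediate on that log2 scale. They were tested with limma over all 18003 genes that were well above background on every array of at least 1 group, with Benjamini-Hochberg adjustment and a threshold of 0.05. One array stood apart before any T-box value was read. The 75th percentile signal was 47.4 on outer replicate 1, 290 and 150 on outer replicates 2 and 3, and 144, 265 and 344 on intermediate replicates 1, 2 and 3. On outer replicate 1, 35.6% of spots passed the scanner software's test for signal well above background, and 45.1% to 53.4% did on the other arrays, and no spot was saturated on any array. Its slide also held the 3 intermediate arrays, while outer replicates 2 and 3 were on another slide. The bulk samples cannot tell fewer cells of a type from less RNA per cell.

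None of the 6 T-box genes passed the test between the layers, whereas 4.05% of all genes tested did (729 genes, limma adjusted p under 0.05). Of the 729, 282 were higher and 447 lower in the outer interzone, and with median scaling the calls were 158 and 937. At unadjusted p under 0.05, 0 of the 6 genes and 3793 of all genes passed. When the replicate number was fitted as a block, 9.09% of all genes and again 0 of the 6 were called by limma. Tbx4 and Tbx15 had their 3 outer arrays above their 3 intermediate arrays, as did 15.6% of all genes tested, and the other 4 genes had overlapping groups. The median difference of the 6 genes was 0.11, beside 0.10 over all genes. Each of the 6 was well above background on at least 2 of the 3 outer and on all 3 intermediate arrays, and the 95% intervals below give the differences that 3 arrays per group leave possible.

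**Figure D1:**
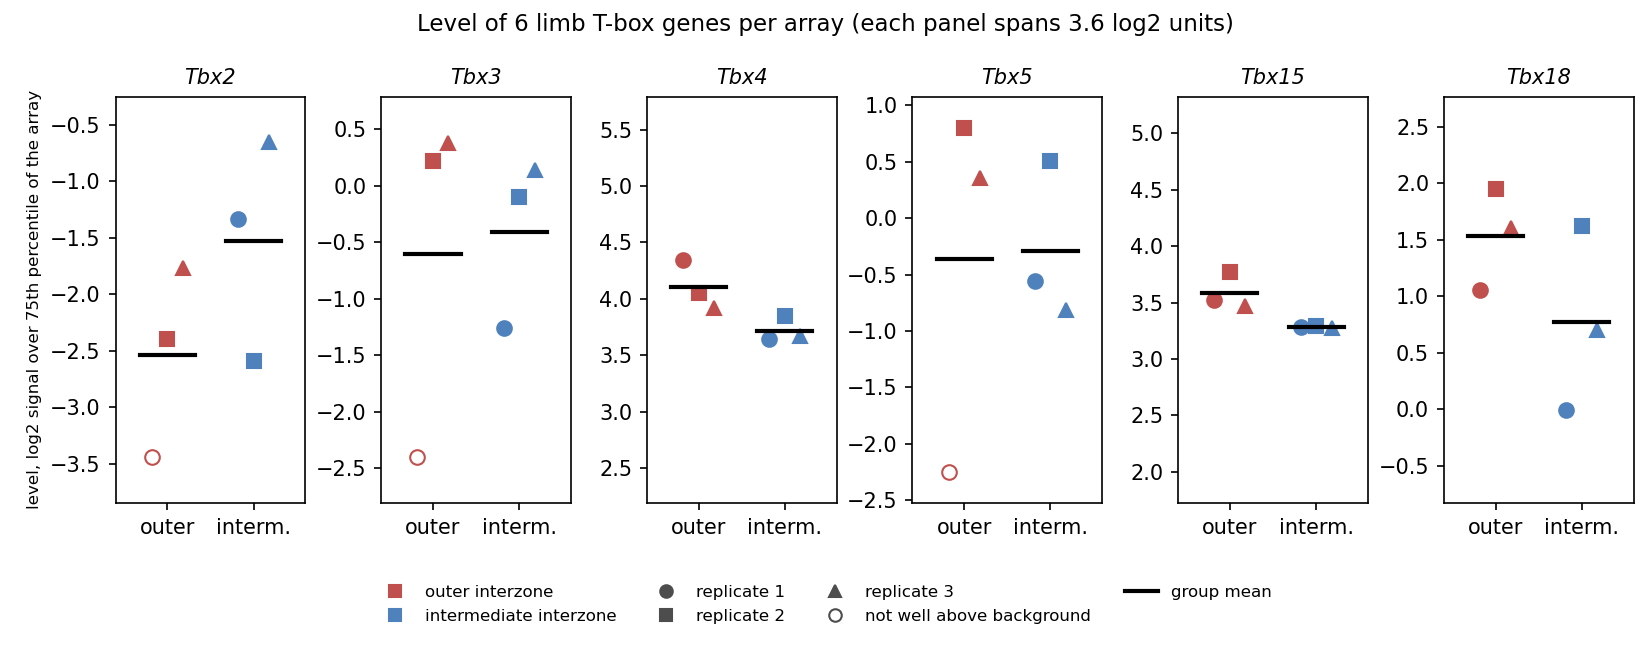
Level of each T-box gene on each array, in log2 units relative to its 75th percentile signal, outer arrays left and intermediate arrays right. Marker shapes are the replicate numbers, open markers are spots not well above background and bars are group means over 3 arrays. The open markers all belong to outer replicate 1 (Tbx2, Tbx3 and Tbx5), and Tbx4 and Tbx15 have groups that do not overlap.

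Every value rests on a single 60-base oligo per gene, so the last 30 bases at the 3′ end of each probe are shown, with positions on mm9 and any polyadenylation hexamer AATAAA in capitals.
Tbx2, chr11:85655421-85655450, plus strand: aaatAATAAAaacgctatcatgcgatttga
Tbx3, chr5:120134541-120134570, plus strand: agggacttggttcaaacgaccatgaaaggc
Tbx4, chr11:85729540-85729569, plus strand: gatatatagcatggacattttgttttgcat
Tbx5, chr5:120334117-120334146, plus strand: acgaacgtcgcaggggctacctgctagttt
Tbx15, chr3:99157931-99157960, plus strand: aaatggtgtggagactcgaatgataccaag
Tbx18, chr9:87599514-87599543, minus strand: tctgaggtatctatagcAATAAAggcttag
The hexamer, the usual signal for polyadenylation, was present in 2 of the 6 probes, those of Tbx2 and Tbx18. The longest run of bases that any 2 of the probes shared was 4 to 7 bases, although the T-box domain itself is conserved between these proteins. Between the Tbx4 and Tbx5 probes it was 4 bases. Whether a probe lies in an untranslated region was not analysed here. The GC content of the 60 bases was 35% for Tbx4 and Tbx18, 38.3% for Tbx2 and Tbx15, 45% for Tbx3 and 50% for Tbx5, and levels of different probes are not ranked against each other for that reason among others.

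Tbx4, the activator known chiefly from the hindlimb, had levels of 4.34, 4.05 and 3.92 on the outer arrays (replicates 1, 2 and 3) and 3.64, 3.85 and 3.67 on the intermediate arrays. Its spot was well above background on all 6 arrays. The lowest outer array lay 0.07 above the highest intermediate array, so the groups did not overlap, but only just. The means were 4.10 ± 0.21 in outer and 3.72 ± 0.11 in intermediate samples (SD, n = 3 each). This was a difference of 0.39 with SE 0.18 and a 95% interval of -0.04 to 0.81 (limma adjusted p = 0.279). The outer sample was the higher one for each replicate number, by 0.70, 0.21 and 0.25, as it was for 37.3% of all genes. Relative to the median of all genes the difference was 0.29, and with each array scaled to its median the sign turned, at -0.0057, with the median of all genes then at -0.29.

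Tbx5, the forelimb activator whose loss stops the mouse forelimb from forming, was far more variable. Its levels were -2.25, 0.80 and 0.36 on the outer arrays and -0.56, 0.51 and -0.81 on the intermediate arrays. Outer replicate 1 was the lowest of the 6 arrays, with its spot not well above background, outer replicate 2 was the highest, and the groups overlapped. The means were -0.36 ± 1.65 in outer and -0.29 ± 0.70 in intermediate samples (SD, n = 3 each). The difference of -0.08 had a 95% interval of -1.95 to 1.80 (limma adjusted p = 0.966), and without outer replicate 1 it was 0.87 (limma adjusted p = 0.351). The same-number differences had mixed signs, at -1.69, 0.29 and 1.17.

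Tbx2, a repressor that holds back cell cycle inhibitor genes in other tissues, overlapped between layers. Its levels were -3.45, -2.40 and -1.77 on the outer arrays and -1.33, -2.59 and -0.66 on the intermediate arrays. The lowest value again came from outer replicate 1, where the spot was not well above background. The means of -2.54 ± 0.85 in outer and -1.53 ± 0.98 in intermediate samples (SD, n = 3 each) differed by -1.01 with SE 0.59 and a 95% interval of -2.39 to 0.37 (limma adjusted p = 0.371). Without outer replicate 1 the difference was -0.56. The same-number differences were -2.11, 0.20 and -1.11, so replicate 2 went against the other replicate numbers.

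Tbx3, the close relative of Tbx2 that is mutated in human ulnar-mammary syndrome, had levels of -2.41, 0.22 and 0.38 on the outer arrays and -1.26, -0.10 and 0.14 on the intermediate arrays. Outer replicates 2 and 3 were the highest of the 6 arrays and outer replicate 1 the lowest, with its spot not well above background. The means were -0.60 ± 1.56 in outer and -0.41 ± 0.75 in intermediate samples (SD, n = 3 each), and the difference of -0.19 had a 95% interval of -2.01 to 1.63 (limma adjusted p = 0.909). Without outer replicate 1 the sign turned, to 0.71 (limma adjusted p = 0.438).

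Tbx15, which the mouse needs for a normal scapula and limb skeleton, had the lowest SD within groups of the 6 genes over all arrays (without outer replicate 1 that of Tbx4 was lower, at 0.106 against 0.126). Its levels were 3.52, 3.77 and 3.47 on the outer arrays and 3.29, 3.29 and 3.27 on the intermediate arrays, all well above background. Every outer array lay above every intermediate array, with a gap of 0.17. The means were 3.59 ± 0.16 in outer and 3.28 ± 0.010 in intermediate samples (SD, n = 3 each). The difference of 0.30 had SE 0.16 and a 95% interval of -0.08 to 0.69 (limma adjusted p = 0.339), and with median scaling it turned to -0.089. Same-number differences were 0.24, 0.48 and 0.19.

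Tbx18, known in the mouse from the anterior part of the somites and from pericytes, had levels of 1.06, 1.95 and 1.60 on the outer arrays and -0.011, 1.62 and 0.70 on the intermediate arrays, all well above background. Intermediate replicate 2 lay within the outer range, so the groups overlapped. The outer sample was higher within each replicate number, by 1.07, 0.33 and 0.90, as it was for 37.3% of all genes. The means of 1.53 ± 0.45 in outer and 0.77 ± 0.82 in intermediate samples (SD, n = 3 each) gave a difference of 0.76 with SE 0.43 and a 95% interval of -0.26 to 1.79 (limma adjusted p = 0.360). With the replicate number as a block, the interval of the same difference narrowed to 0.27 to 1.25, and it still did not pass (limma adjusted p = 0.0708). In that fit 6053 of the 18003 genes had an unadjusted limma p under 0.05. With slide as a block the Tbx18 difference was 0.29, where the outer side rests on outer replicate 1 alone.

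**Figure D2:**
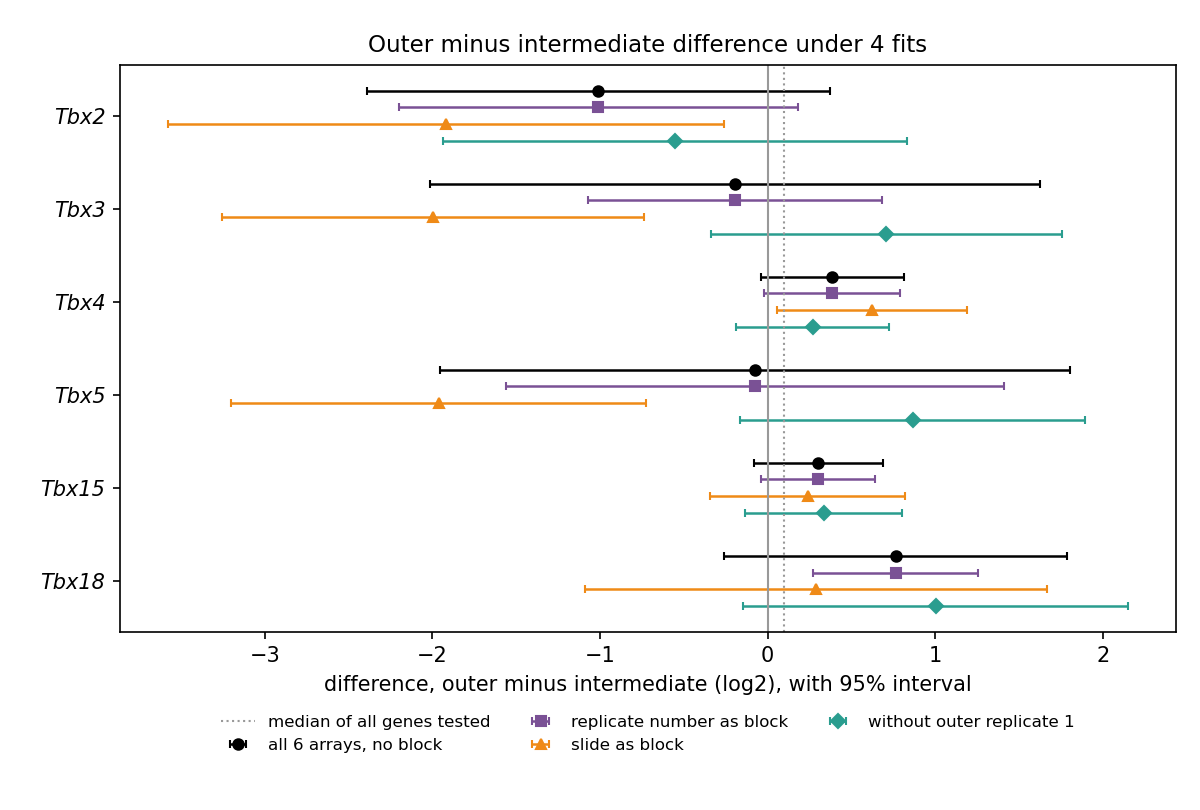
Outer minus intermediate difference of each T-box gene on the log2 scale, with its 95% interval, in 4 limma fits (all arrays without a block, replicate number as a block, slide as a block, and without outer replicate 1). The dotted line is the median of all genes in the fit without a block. Tbx3 and Tbx5 lie near -2.00 and -1.96 with slide as a block and at 0.71 and 0.87 without outer replicate 1, and Tbx4 and Tbx15, above 0 in the 4 fits shown, lay at -0.0057 and -0.089 with median scaling.

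The 6 genes thus fell into a quiet and a variable set, as a description of these arrays. The SD within groups, pooled over both layers, was below that of most genes for Tbx15 (percentile 6.64 of all genes) and Tbx4 (19.8). It was among the highest for Tbx5 (99.1), Tbx3 (98.9), Tbx2 (96.3) and Tbx18 (90.1). These percentiles are over genes of every signal level. Spots of Tbx4 and Tbx15 had levels of 3.27 or more on every array, and those of Tbx2, Tbx3, Tbx5 and Tbx18 had 1.95 or less. The part of signal level in the split was not tested. Without outer replicate 1 the percentiles were 12.8 for Tbx15, 8.21 for Tbx4, 91.3 for Tbx5, 91.8 for Tbx3, 96.9 for Tbx2 and 94.0 for Tbx18, so the split did not rest on that array alone. Tbx2, Tbx3 and Tbx5 were the 3 genes measured on every array except outer replicate 1, a pattern that 14.4% of all genes tested shared. On that array the lowest level among spots well above background was -1.82, and on the other arrays it was -3.60 or lower. Skeletal muscle and erythroid markers were also at their lowest on outer replicate 1, with mean levels of -3.03 and 2.01 there, against -1.04 to 1.97 and 5.03 to 7.002 on the other arrays. The part of signal strength or of these tissues in the Tbx3 and Tbx5 values was not tested.

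The values of the same genes changed in the fits that took account of slide. With slide as a block, or within the slide that held both layers, the outer side rests on outer replicate 1 alone. Slide cannot be told apart there from that array, on which the spots of Tbx2, Tbx3 and Tbx5 were not well above background. In these fits Tbx2, Tbx3 and Tbx5 differed by -1.92, -2.00 and -1.96, Tbx4 by 0.62, Tbx15 by 0.24 and Tbx18 by 0.29. None passed, and the lowest limma adjusted p with slide as a block was 0.0739, that of Tbx3.

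Levels of pairs of these genes over the 6 arrays are given as a description, since the points share their arrays, their scaling and the same dim array. Tbx4 and Tbx15 went together (Pearson r 0.683 over 6 arrays, 0.878 without outer replicate 1). Tbx3 and Tbx5 did so with outer replicate 1 (0.846) and less without it (0.481). Other pairs changed sign once outer replicate 1 was left out. Tbx4 and Tbx5 stood at -0.361 with it and 0.939 without it, and Tbx2 and Tbx5 at 0.212 and -0.932. Tbx3 and Tbx4 stood at -0.477 with it and 0.645 without it, and Tbx2 and Tbx3 at 0.511 and -0.210. Tbx2 ran opposite to Tbx4, its neighbour on chromosome 11 (-0.885, and -0.759 without outer replicate 1). The Tbx2 and Tbx4 probes lie 74.1 kb apart on mm9. The negative sign was not particular to this pair. Tbx2 was also negative with Tbx15 (-0.502, and -0.501 without outer replicate 1) and with Tbx18 (-0.484 and -0.742).

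The genes whose levels followed each T-box gene most closely over the 6 arrays, by Pearson r among 13326 genes with a symbol, are named as a description only, because 6 points let many genes reach a high r. For Tbx4 they were Cpxm1, Ncapg2 and Ppip5k2 (r 0.997, 0.994 and 0.991), and 119 genes exceeded 0.95. For Tbx5 they were Fam189a1, Vps4a and Cldn3, for Tbx2 Higd1b, Lrrc32 and Scyl3, and for Tbx3 Slc26a2, 4933440N22Rik and Wars. For Tbx15 they were Hnrnph2, Nkapd1 and Auts2, and for Tbx18 Polr2k, Cryz and Cks2. The number of genes above 0.95 ran from 21 for Tbx2 to 240 for Tbx18, and none of the 18 genes named here passed the test between layers (limma adjusted p 0.131 to 0.960).

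Tbx4 and Tbx5 bear on which limb the joints came from, which the labels do not say. Tbx4 was well above background on all 6 arrays and Tbx5 on 5 of 6, so transcripts of both the hindlimb and the forelimb gene were measured in both layers. The within-array difference of the Tbx4 probe minus the Tbx5 probe, on the log2 scale, was 6.59, 3.25 and 3.56 on the outer and 4.20, 3.34 and 4.48 on the intermediate arrays. It sets probes of different sequence side by side and is no ratio of transcripts, so only its change between arrays can be read. It varied by 3.34 over the 6 arrays and by 1.23 without outer replicate 1, and the layers overlapped. With no array of known limb for comparison, the share of fore- and hindlimb tissue cannot be told from these values.

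Other genes known for one limb were likewise measured from both sides, except Isl1. Pitx1, the hindlimb factor that induces Tbx4 in the mouse, was well above background on all 6 arrays, with levels of 5.93, 6.42 and 6.03 on the outer and 5.52, 6.37 and 5.80 on the intermediate arrays. Its groups overlapped and it differed by 0.23 (limma adjusted p = 0.654). Isl1, which acts early in the hindlimb bud, was above background on none of the arrays. The hindlimb Hox genes Hoxc9 and Hoxc10 were measured on all 6 arrays and Hoxc11 on 5, and they differed by -0.02, 0.33 and -0.02 (limma adjusted p = 0.953, 0.492 and 0.966). Among the more anterior Hox genes known from the forelimb, Hoxc4 and Hoxc6 were measured on all 6 arrays and Hoxc5 on 4, too few per layer for a test. Hoxc4 differed by 0.35 and Hoxc6 by 0.69 (limma adjusted p = 0.508 and 0.261). With median scaling Pitx1, Hoxc10 and Hoxc4 turned to -0.16, -0.057 and -0.038. Thus 0 of 4 hindlimb and 0 of 2 forelimb genes tested passed, beside 4.05% of all genes, with medians of 0.10 and 0.52.

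**Figure D3:**
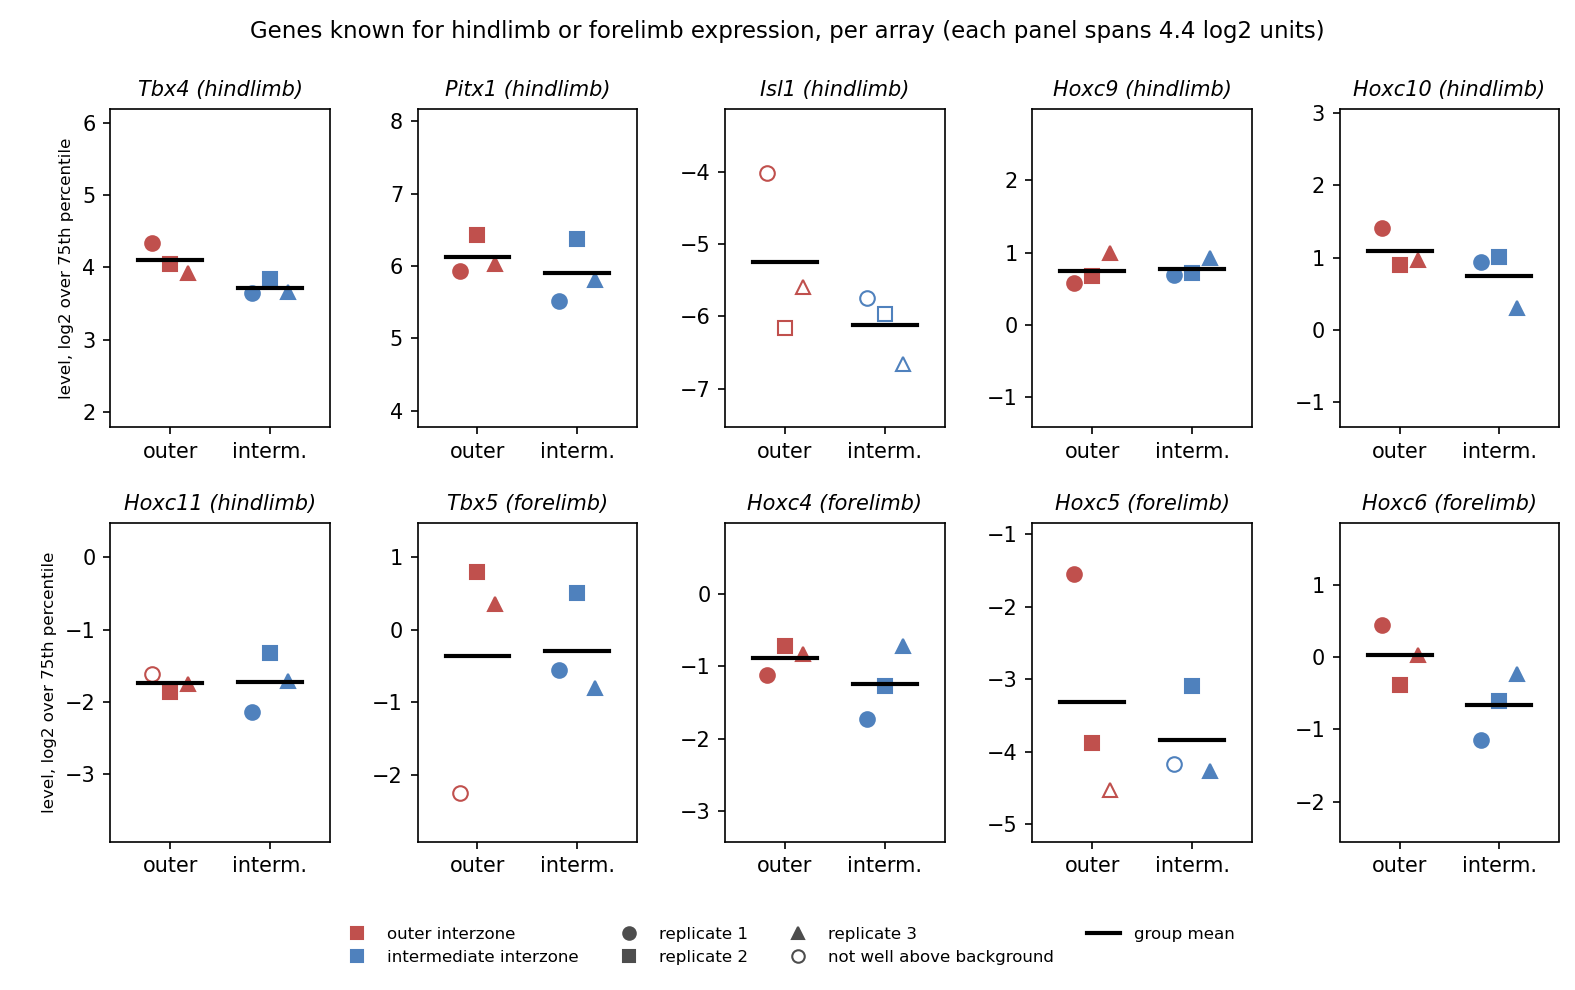
Levels of genes known for hindlimb expression (Tbx4, Pitx1, Isl1, Hoxc9, Hoxc10, Hoxc11) and forelimb expression (Tbx5, Hoxc4, Hoxc5, Hoxc6) on each array, in log2 units relative to the array's 75th percentile signal, outer left and intermediate right, with bars at group means. Isl1 is above background on none of the 6 arrays, and Tbx5 is well above background on all but outer replicate 1.

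The other members of the T-box family set the 6 limb genes in context. Of 12 names, T and Tbxt stand for the same gene, which left 11 on the array, and 5 were tested. T, Tbx19, Tbx20, Tbx21 and Eomes were above background on none of the 6 arrays, and Tbr1 was on 1 outer and 2 intermediate arrays. Of the 5 tested, 0 passed in limma, beside 4.05% of all genes. Tbx22, known from palate development, came closest, with levels of 0.50, -0.84 and -0.27 on the outer and -2.17, -1.48 and -2.22 on the intermediate arrays. All outer arrays were higher, and the difference of 1.76 had limma adjusted p = 0.0528. Tbx22 passed with median scaling (1.37, limma adjusted p = 0.0429), among other settings, but not with the replicate block (limma adjusted p = 0.0644). A block for slide gave it a difference of 2.46, where the outer side rests on outer replicate 1 alone, its highest outer array. Tbx1, known from the pharyngeal arches and from muscle, had levels of -2.01, -0.44 and -0.78 on the outer and -0.17, 1.15 and 0.73 on the intermediate arrays. The groups did not overlap, and the difference of -1.65 (limma adjusted p = 0.121) passed once the replicate number was a block (limma adjusted p = 0.0231). Tbx1 was well above background on 2 of the 3 outer and all 3 intermediate arrays. With slide as a block the difference was -2.59, where the outer side rests on outer replicate 1 alone. Its level there, -2.01, was below the lowest level among spots well above background on that array (-1.82). Tbx6 differed by 0.95, Tbx10 by 0.34 and Mga, a large T-box protein that also pairs with Max, by 0.16 (limma adjusted p = 0.261, 0.677 and 0.585), and with median scaling Tbx10 turned to -0.052 and Mga to -0.23.

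Of 12 genes that T-box factors are known to control, 9 were tested and 0 passed, beside 4.05% of all genes. The 9 comprised 4 with a positive and 5 with a negative difference, with a median of -0.49. Fgf10, the growth factor that Tbx4 and Tbx5 induce in the early limb bud, had levels of -2.59, -1.72 and -2.86 on the outer and -1.06, -1.04 and -0.59 on the intermediate arrays. All outer arrays were lower, and the difference of -1.49 had limma adjusted p = 0.0541. It passed with median scaling (-1.88, limma adjusted p = 0.0191) and with normexp background correction (-0.74, limma adjusted p = 0.0441). Without outer replicate 2 it passed too (-1.83, limma adjusted p = 0.0153), but not without any other single array (limma adjusted p 0.122 to 0.194). Fgf10 also missed the threshold in the replicate block fit (limma adjusted p = 0.0583) and under quantile normalization (limma adjusted p = 0.0765). The slide block and the shared slide both gave -1.69, where the outer side rests on outer replicate 1 alone. Fgf10 was well above background on 2 of 3 outer arrays. Its level on outer replicate 1 was below the lowest among spots well above background there (-1.82). Tbx4 and Fgf10 thus had differences of 0.39 and -1.49 (-0.0057 and -1.88 with median scaling). Cdkn2a and Cdh1, repressed by Tbx2 or Tbx3 in other cells, and Sall1 were above background on none of the 6 arrays. Ndrg1 was at 2.76 ± 0.25 in outer and 3.25 ± 0.30 in intermediate samples (limma adjusted p = 0.271; SD, n = 3 each). Cdkn1b was at 2.84 ± 0.08 in outer and 2.47 ± 0.27 in intermediate samples (limma adjusted p = 0.315, and -0.020 in difference with median scaling; SD, n = 3 each). All 6 Groucho and histone deacetylase co-repressors were measured on all arrays, 0 passed, and their median was 0.48. Hdac1 differed by 0.26 (limma adjusted p = 0.549; -0.13 with median scaling) and Tle1 by 0.63 (limma adjusted p = 0.203). Tle1 passed once the replicate number was a block (limma adjusted p = 0.048).

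A further list was drawn up around Tbx2 and Tbx3, which respond to BMP signals. It held BMP ligands, Smads and the Id and Msx target genes, and some of them passed. Of 12 tested, 2 were higher in the outer interzone and none lower, beside 4.05% of all genes in either direction, while Tbx2 and Tbx3 themselves had negative differences of -1.01 and -0.19 (0.71 for Tbx3 without outer replicate 1). Bmp2 was at 2.18 ± 0.36 in outer and 0.24 ± 0.40 in intermediate samples (SD, n = 3 each). This was a difference of 1.94 (limma adjusted p = 0.0182). Bmp5 was at 0.09 ± 0.27 in outer and -3.88 ± 0.41 in intermediate samples (SD, n = 3 each). This was a difference of 3.97 (limma adjusted p = 0.00433), and of 1.85 with normexp. Only 2 of the 3 intermediate arrays measured Bmp5 well above background. The Bmp2 call ended within the shared slide (limma adjusted p = 0.0612) and without intermediate replicate 1 or 3 or outer replicate 3 (limma adjusted p 0.0759 to 0.0801). Bmp7, at a difference of 3.18, did not pass (limma adjusted p = 0.102) but did with the replicate block (limma adjusted p = 0.0354), and 2 of the 3 intermediate arrays measured it. Bmp4 went the other way, at -0.94 (limma adjusted p = 0.0793; -1.33 with median scaling), and its groups did not overlap. Of the 12 differences, 7 were positive and 5 negative, and the list median was 0.15. Of 4 tested scapula partners of Tbx15, 0 passed, beside 4.05% of all genes, with a median of 0.45. Gli3 differed by 0.03 (limma adjusted p = 0.944) and turned to -0.36 with median scaling.

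Of 6 tested limb outgrowth genes that act beside Tbx4 and Tbx5, 1 passed, beside 4.05% of all genes, and the median was -0.08. It was Shox2, a homeobox gene of the proximal limb skeleton, at -0.27 ± 0.30 in outer and -2.28 ± 0.83 in intermediate samples (SD, n = 3 each). This was a difference of 2.01 (limma adjusted p = 0.047). The call was lost with a block for slide (limma adjusted p = 0.0701), with quantile normalization (limma adjusted p = 0.0753) and in the fits without any single array except intermediate replicate 2 (limma adjusted p 0.0714 to 0.173).

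**Figure D4:**
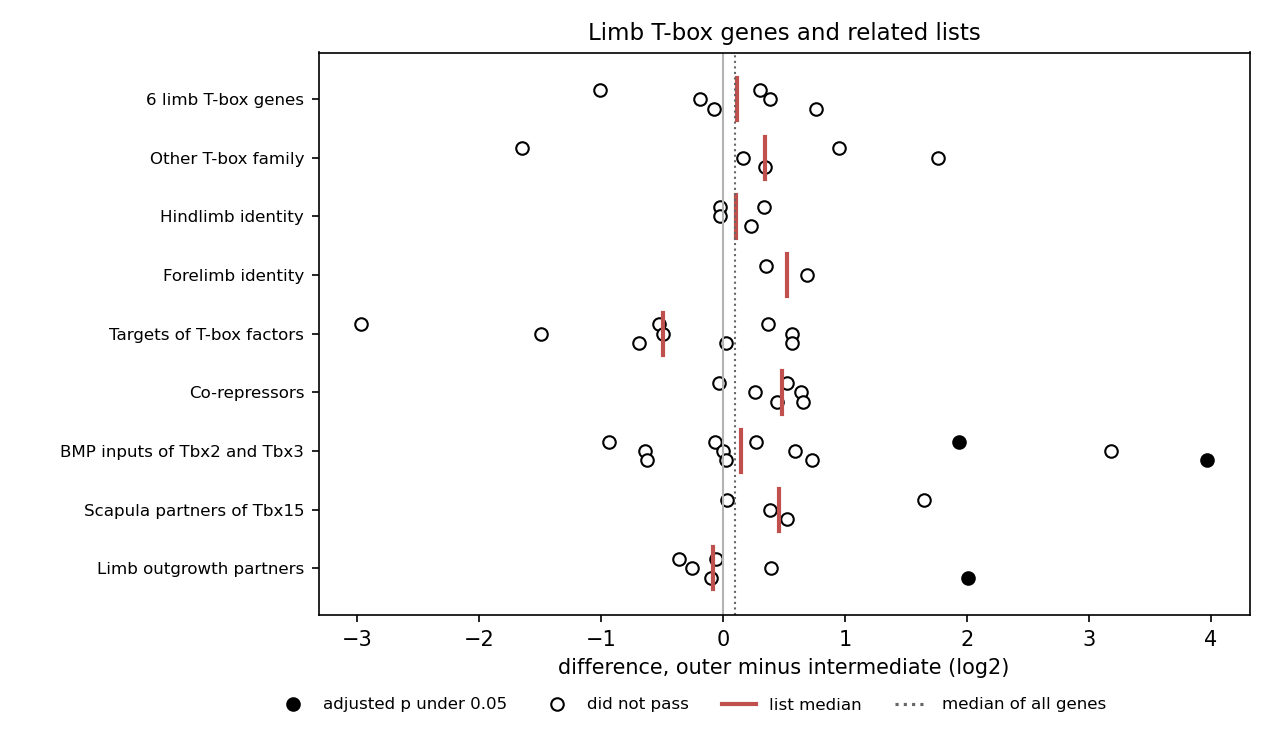
Outer minus intermediate difference (log2, horizontal axis) of every tested gene in the 6 limb T-box genes and 8 related lists, with filled points for limma adjusted p under 0.05, a bar at each list's median and a dotted line at the median of all genes (0.10). The filled points are Bmp5, Bmp2 and Shox2, and no T-box gene is filled. With each array scaled to its median, all points shift left by 0.39.

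A DNA sequence bound by T-box proteins, AGGTGTGA or its reverse complement TCACACCT, was looked for in RefSeq promoters (GRCm38.p6, 250 bases before to 50 bases after each start). It was present in 1.28% of 32851 promoters. The table held promoters of 2 of the 6 T-box genes, Tbx4 and Tbx18, and neither held the sequence. The table held 12 promoters of 8 target genes, and 2 of the 12 held it, the only one of Nppa and 1 of those of Cdkn1a. Both stretches are shown, with the match in capitals, because Tbx2 or Tbx5 is known to act on these genes.
Cdkn1a, chr17:29093772-29093799, plus strand: agcagccgagAGGTGTGAgccgccgcgg
Nppa, chr4:148000472-148000489, plus strand: TCACACCTttgaagtggg
Cdkn1a, a cell cycle inhibitor that Tbx2 represses in other cells, differed by 0.03 (limma adjusted p = 0.976; -0.37 with median scaling). Nppa, the natriuretic peptide gene that Tbx5 activates and Tbx2 represses in the heart, differed by 0.57 (limma adjusted p = 0.145). A match is a description and does not show binding.

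Markers of the tissues around the joint differed between the layers and stand beside the T-box values, with 4.05% of all genes called. Gdf5, which marks interzone cells, was at 5.69 ± 1.07 in outer and 5.69 ± 0.89 in intermediate samples (SD, n = 3 each), on all arrays. Of 7 interzone and joint markers, Erg, a transcription factor of joint cells, was higher (0.95) and Gdf6, a close relative of Gdf5, was lower (-1.77) in the outer interzone. All 7 cartilage markers were higher in the outer interzone, among them Col9a1 (4.28) and Matn1 (5.997, and 2.35 with normexp). In the intermediate interzone only 1 of the 3 arrays measured Matn1 above background. The log2 of their summed signal over the 75th percentile ran from 9.02 to 9.60 in outer and from 5.75 to 6.72 in intermediate samples. All 6 macrophage markers were lower, among them Cx3cr1 (-3.93) and Mrc1 (-3.83), each well above background on 2 of 3 outer arrays, with log2 sums of 2.51 to 4.05 in outer and 5.63 to 6.55 in intermediate samples. Of 6 endothelial markers, 4 were lower, among them Emcn (-2.93, well above background on 2 of 3 outer arrays) and Tek (-2.92, and -1.22 with normexp, on 1 of 3 outer arrays). Kdr stood on the other side, at 0.82 (limma adjusted p = 0.231), but at -0.74 as the mean of its probes. Cldn5, at -2.32 (limma adjusted p = 0.0865), passed with the replicate block (limma adjusted p = 0.0302). The list had log2 sums of 4.94 to 5.95 in outer and 5.25 to 5.46 in intermediate samples.

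Among pericyte markers, which bear on Tbx18, 8 of 10 were tested. Their median was -1.15, with 7 negative differences and 1 positive. Rgs5 was lower (-2.37) in the outer interzone, and Cspg4, the positive one, was higher (1.27). Abcc9, at -2.34 (limma adjusted p = 0.138), passed with the replicate block (limma adjusted p = 0.0447). The log2 sums were 5.47 to 5.91 in outer and 5.58 to 6.09 in intermediate samples. Tbx18 itself stood at a positive difference, 0.76. None of the tested tendon (6), bone (2), skeletal muscle (5), epidermis (4) and erythroid (4) markers passed, although the erythroid marker Slc4a1, at -1.87 (limma adjusted p = 0.319), did with the replicate block (limma adjusted p = 0.0378). Of the 10 marker genes named here that passed, Col9a1 and Rgs5 were called in all 6 fits that left out 1 array, Erg in none of them (limma adjusted p up to 0.145), and the other 7 lost their call in at least 1. The part of these tissues in the T-box differences was not tested.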

How the data were processed

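Total RNA of 3 outer and 3 intermediate interzone samples was read on single-colour Agilent arrays. Per the file headers, the scanner software was Feature Extraction 10.7.3.1. Each deposited scanner file holds a processed signal intensity per spot, background-subtracted per the file headers, and flags for outlier spots and spots well above background. Partek 6.11.0321 appears in the submitters' processing notes with no step named. The authors' deposited table holds, on a linear intensity scale, the processed signal divided by each array's median (spread of that ratio at most 0.000565%), with no log or centring per gene and no stated direction of comparison. Probe names and positions are those of the files (mm9). Symbols were updated through RefSeq accessions (26760 of 28388 probes matched), with the files' name kept otherwise. Probes were not placed in exons or untranslated regions.

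The values analysed were log2 ratios of the processed signal to the array's 75th percentile, computed here from the deposited intensities. Flagged spots were left out, spots of 1 probe were averaged (55681 probes, 9 dropped), and a gene was its brightest tested probe. The layers were compared in R 4.3.3 with limma 3.58.1 (lmFit, eBayes, two-sided, Benjamini-Hochberg over 18003 genes). With each probe as its own feature, 832 of 23884 probes and 0 of the 6 T-box probes were called. Scripts were tested on simulated data. The members, lists and tests were chosen with earlier results of these data known. Named genes are all 6 members, the other T-box, hindlimb and forelimb lists, up to 4 called genes of each further list with the largest difference or else the 2 brightest, Fgf10 and Pitx1, the 3 genes most like each member, and up to 2 called markers per tissue with the largest difference. Cdkn1a and Nppa, named for their promoters, and Gdf5, Bmp4, Bmp7, Kdr, Cldn5, Abcc9 and Slc4a1 were added after their values were seen. A scapula partner that this rule names is not reported here.

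The labels number the replicates in both layers. After group means were removed, outer and intermediate samples of 1 number had r across genes of 0.563, 0.480 and 0.372, and no other combination was above 0.114. The numbers were thus treated as a possible pairing. The labels do not say that the outer and intermediate samples of 1 number came from the same embryo. The highest r, that of replicate 1, joined the arrays with the lowest 75th percentile signal of each layer (47.4 and 144), both on 1 slide. The part of signal strength or slide in it was not tested. With group means removed, a high correlation with 1 sample lowers those with the rest. The main comparison has no block. Alternatives were the replicate number and slide as blocks, the shared slide alone, other scalings, normexp with offset 50, other filters, the mean of a gene's probes, and leaving out each array. Each array's signal over background limits what could be measured, and 3 arrays per group limit the precision.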

Additional observations from a re-analysis of the deposited data

How the results depend on the processing

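None of the 6 limb T-box genes was called by limma in the analysis reported or under any of 20 alternatives, 3 of which were chosen after seeing the data (the replicate block without replicate 1, quantile normalization with the replicate block, and normexp without outer replicate 1). With signal required on all 6 arrays, 3 of the 6 genes could be tested. The lowest adjusted p of any member was 0.0708, for Tbx18 with the replicate block. Tbx2 stayed between -2.11 and -0.31 and Tbx18 between 0.29 and 1.19. Tbx4 ran from -0.0057 with median scaling, as with the authors' deposited values, to 0.70, and Tbx15 from -0.089 under these same scalings to 0.36. Tbx3 ran from -0.69 to 0.71 when 1 array was left out, and was 0.28 in the replicate block without replicate 1 and 0.50 with normexp without outer replicate 1. Tbx5 ran from -0.66 to 0.87 when 1 array was left out, and was 0.037 with normexp, 0.73 in the replicate block without replicate 1 and 0.58 with normexp without outer replicate 1. With outer replicate 1 kept, the sign also turned for Tbx3 without intermediate replicate 3 (0.079) and for Tbx5 without intermediate replicate 2 (0.32). The cause of the sign changes of Tbx3 and Tbx5 was not tested. Each value without replicate 1 leaves out the array on which they were not well above background. The replicate block changed no call of a member.

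The number of genes called, 729 of 18003 as reported, was 450 with quantile normalization, 1095 with median scaling and with the authors' values, 460 with signal required on all 6 arrays, 1636 with the replicate block, 1215 with slide as a block and 1369 within the shared slide. Without a filter limma called 0 of 35077 genes (4268 at unadjusted p under 0.05). Leaving out 1 array gave 65 to 1102. The 3 alternatives chosen after seeing the data called 138 of 20171 genes (replicate block without replicate 1), 68 of 18003 (quantile normalization with the replicate block) and 472 of 19385 (normexp without outer replicate 1). Of the related lists, 3 genes were called as reported, 6 with median scaling, with the authors' values, with the replicate block, with slide as a block and with both blocks, 7 with normexp, 9 within the shared slide, 0 without a filter (adjusted p 0.0786 for Bmp5) and 1 to 4 with 1 array left out. The splits of calls into higher and lower in the outer interzone were 282 and 447 as reported, 158 and 937 with median scaling and 836 and 800 with the replicate block.

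With median scaling, as with the authors' values, the differences of further named genes that turned negative were those of Tbx10 (-0.052), Mga (-0.23), Pitx1 (-0.16), Hoxc10 (-0.057), Hoxc4 (-0.038), Cdkn1b (-0.020), Hdac1 (-0.13), Cdkn1a (-0.37) and Gli3 (-0.36). Cdkn1a was also at -0.00995 with quantile normalization, at -0.40 with slide as a block or within the shared slide, and at -0.29 with both blocks. Kdr was at -0.74 as the mean of its probes. Gli3 was also at -0.041 with quantile normalization, at -0.040 with normexp, at -0.13 with slide as a block or within the shared slide, and at -0.11 with both blocks. With both blocks Tbx10 was at -0.34 and Hoxc11 at 0.52, and with slide as a block or within the shared slide Hoxc11 was at 0.11. With 1 array left out, Hoxc9 ran from -0.14 to 0.062, Hoxc11 from -0.23 to 0.18, Gli3 from -0.062 to 0.12, Gdf5 from -0.56 to 0.51 and Cdkn1a from -0.40 to 0.24. These differences lay near 0 or had wide intervals, and the arrays per group limit them. Outer replicate 1 alone carries the outer side within the shared slide, where it is assumed to vary like the intermediate arrays.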

Other observations

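Probes that lie within 100 kb of the T-box probes on mm9 were looked at after the T-box values were seen. Around Tbx5, the array carries probes for noncoding transcripts in both orientations. One reverse-strand probe, on chromosome 5 from 120279227 to 120279286 and 54.9 kb from the Tbx5 probe, was well above background on all 6 arrays, with levels of -1.03, -0.66 and -0.22 on the outer and -1.43, -1.06 and -1.30 on the intermediate arrays. Every outer array was higher than every intermediate array, and the difference of 0.63 did not pass (limma adjusted p = 0.207). The forward-strand probes of the same stretch were above background on none of the arrays. Its other reverse-strand probes were well above background on fewer arrays than the one named. The reverse-strand probe 57.1 kb from the Tbx5 probe was so on 2 outer and 1 intermediate arrays. Those 57.0 and 55.7 kb away were so on 1 outer array each and on no intermediate array. The reverse-strand probe 58.1 kb away was above background on none of the arrays. Between Tbx2 and its upstream neighbour Bcas3, whose nearest probe lies 16.3 kb from that of Tbx2, the differences were -1.01 and 0.32 (limma adjusted p = 0.371 and 0.5002), and this Bcas3 probe was measured on all 6 arrays. Another Bcas3 probe, 27.9 kb from that of Tbx2 and well above background on 2 of 3 outer and all 3 intermediate arrays, differed by -0.36. No other probe lay within 100 kb of the Tbx15 probe.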
